A study of Mus musculus with 9 samples.

Results

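The 10 genes described here encode the mouse chains of the common gamma chain and common beta chain cytokine receptors, out of 50686 genes in the count tables. They were chosen by name: the shared gamma chain Il2rg and its partner chains Il7r, Il2ra, Il2rb, Il4ra and Il21r, the shared beta chains Csf2rb and Csf2rb2, and the alpha chains Il3ra and Csf2ra. Each was measured by RNA-seq in lines of mouse bone marrow cells (C57BL/6N background) that the p185 form of the BCR/ABL oncogene had transformed. There was 1 line that was wild type for both Stat5 genes (wt), 1 Stat5a-/- line and 1 Stat5b-/- line, each sequenced as 3 technical replicates, so that 9 libraries were compared. All lines carried the oncogene and were grown in RPMI medium with serum and 2-mercaptoethanol, with no cytokine named among the additives. Tests on these libraries therefore compare 3 cell lines, and their p-values measure the spread between technical replicates.

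Receptors of both families have no kinase of their own. Ligand binding brings the chains together, the Janus kinases bound to their tails phosphorylate the receptor, and STAT proteins, STAT5A and STAT5B among them, are recruited and activated. The gamma chain pairs with a ligand-specific partner for IL-2, IL-4, IL-7, IL-15 and IL-21, cytokines of lymphocyte growth. The beta chains pair with alpha chains for IL-3, IL-5 and GM-CSF, which act mainly on myeloid cells and early progenitors. IL-7 is the main growth factor of normal mouse pro-B and pre-B cells. BCR/ABL activates STAT5 without a cytokine.

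A library held between 11948136 and 19016396 counted reads. Levels are in normalized CPM, the counts scaled to a common library total with edgeR's TMM factors. The chi-square per degree of freedom between technical replicates was 4.89 to 30.5, above the value of sampling noise alone. Stat5a was at 36.0 to 48.2 normalized CPM in wt and 11.8 to 13.6 in Stat5a-/- libraries, and Stat5b at 103 to 107 in wt and 58.5 to 72.3 in Stat5b-/- libraries. Both knockout lines thus kept reads of the targeted gene, and whole-gene counts do not show where in the gene these fall. The 12 B-lineage markers were detected in every line and summed to 5461 to 5753 normalized CPM in wt, 7363 to 7945 in Stat5a-/- and 6673 to 7427 in Stat5b-/- libraries. Of these markers 6 rose and 2 fell in Stat5a-/- and 6 rose and 4 fell in Stat5b-/-, where 19.8% and 16.3%, and 24.2% and 22%, of all tested genes did. Past both limits were Rag1 and Rag2, lower in both knockout lines, and in Stat5b-/- Vpreb2 (lower) and Cd79a (higher). The 16 T-cell markers summed to 861, 1177 and 1086 normalized CPM in wt, 1634, 1713 and 1468 in Stat5a-/- and 2565, 1754 and 2450 in Stat5b-/- libraries. Whether these transcripts came from T cells or from the transformed cells was not tested. In such bulk samples fewer cells of a type and less RNA per cell cannot be told apart. Monocyte and granulocyte markers, mast cell and basophil markers and stromal markers summed to at most 15.4, 1.58 and 0.631 normalized CPM in any library. Erythroid markers summed to 11.6 to 13.8 in wt, 12.4 to 14.7 in Stat5a-/- and 3.02 to 3.66 in Stat5b-/- libraries.

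All 10 receptor genes passed the filter on low counts. Per kilobase of gene model, Il7r had the highest level in wt (117 normalized CPM per kb), followed by Il2rg (69.6), Il2rb (18.0) and Csf2rb (15.4), and the last pair overlapped between libraries. Whole gene models were used, although reads were not assigned in the 30.5% of Il2rg exon bases shared with another gene model. The Il2rg levels per kb may thus be too low, and its place below Il7r in wt is uncertain. Il4ra, Il3ra and Il2ra had the lowest wt levels, 2.82, 2.60 and 2.44 per kb, and the libraries of Il3ra overlapped those of both other genes. In both knockout lines Il2rg came first, at 92.1 per kb in Stat5a-/- and 113 in Stat5b-/-. Il7r was second in both, at 54.3 per kb in Stat5a-/-, where its libraries overlapped those of Csf2rb (47.3), and at 86.5 in Stat5b-/-. Il2ra had the lowest level in Stat5b-/- (2.24 per kb), overlapping Csf2rb2 (2.27). Over all 9 libraries, 96% of the tested genes had a lower mean level per kb than Il2rg, 95.7% a lower one than Il7r, and 45.2% a lower one than Il2ra. The plot of levels by library shows all 90 values.

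**Figure D1:**
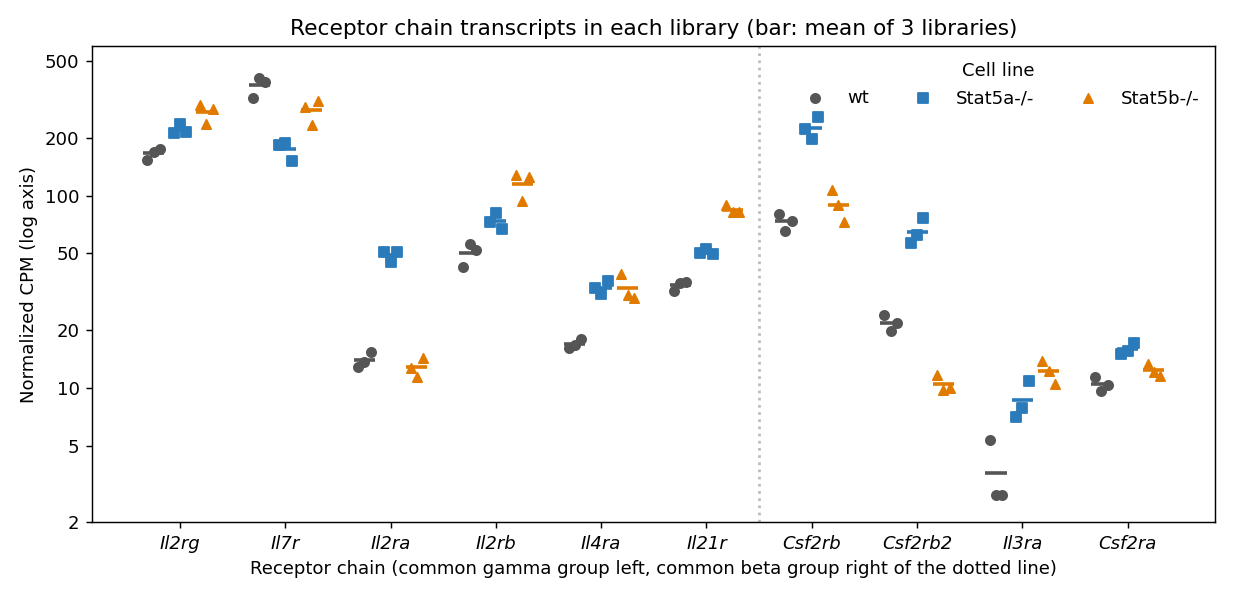
Normalized CPM of each receptor chain on a log axis, with 1 point per library for wt (grey circles), Stat5a-/- (blue squares) and Stat5b-/- (orange triangles) and a bar at the mean of 3 libraries. Il2ra, Csf2rb and Csf2rb2 stand highest in all 3 Stat5a-/- libraries, Il21r and Il2rb in all 3 Stat5b-/- libraries, and Il7r in all 3 wt libraries.

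The question put to each pair of lines was which receptor chains differed in transcript level. In Stat5a-/- cells the alpha chain of the IL-2 receptor and the beta chains rose the most, and Il7r was the chain that fell. Il2ra rose 3.50-fold, Csf2rb 3.07-fold, Csf2rb2 2.99-fold and Il3ra 2.39-fold over wt, while Il7r was 2.15-fold lower. These 5 genes, 4 higher and 1 lower, had a Benjamini-Hochberg adjusted p under 0.05 in the quasi-likelihood test of edgeR and changed more than 2-fold, which are called both limits here. Of the 13852 tested genes 14.2% did so, 7.75% as higher and 6.49% as lower. With the adjusted p alone all 10 chains were called, 9 higher and 1 lower, where 36% of the tested genes were called, 19.8% as higher and 16.3% as lower. The Stat5a-/- libraries did not overlap the wt libraries in any of the 10, which was so for 49.2% of the tested genes. The median log2 fold change was 0.79 over the 10 chains and 0.01 over the tested genes, against 0.50 and 0.02 in Stat5b-/- against wt and 0.14 and 0.02 in Stat5b-/- against Stat5a-/-.

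In Stat5b-/- cells Il3ra, Il21r and Il2rb rose the most. Il3ra rose 3.39-fold, Il21r 2.47-fold and Il2rb 2.30-fold over wt, and Csf2rb2 was 2.07-fold lower. These were the 4 chains past both limits, 3 of them higher and 1 lower, where 19.1% of the tested genes were, 10.6% as higher and 8.44% as lower. The adjusted p alone called 7 chains, 5 higher and 2 lower, where 46.2% of the tested genes were called, 24.2% as higher and 22% as lower. Moreover, 8 chains did not overlap between the lines, as did 54.2% of the tested genes. Both comparisons use the same wt libraries, so their values stand side by side here and are not independent.

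Set directly against Stat5a-/-, the Stat5b-/- line had lower levels of Csf2rb2 (6.18-fold), Il2ra (3.82-fold) and Csf2rb (2.51-fold). These 3 chains passed both limits and all were lower, where 11.4% of the tested genes passed in either direction, 4.81% as higher and 6.6% as lower. With the adjusted p alone 8 chains differed, 4 higher and 4 lower in Stat5b-/-, where 33.9% of the tested genes did, 16.4% as higher and 17.5% as lower. The libraries of the knockout lines did not overlap for 7 chains, as for 44.8% of the tested genes.

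**Figure D2:**
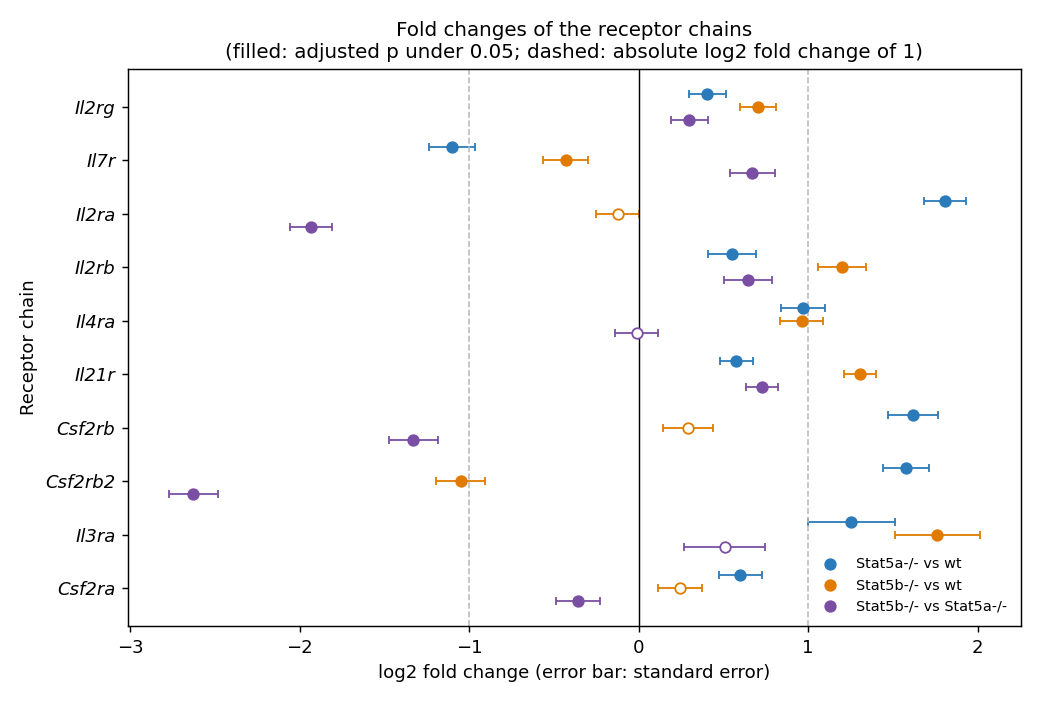
Log2 fold change of each receptor chain with its standard error, for Stat5a-/- against wt (blue), Stat5b-/- against wt (orange) and Stat5b-/- against Stat5a-/- (purple), with filled points at an adjusted p under 0.05 and dashed lines at an absolute log2 fold change of 1. Csf2rb2 lies at 1.58 in Stat5a-/- and -1.05 in Stat5b-/-, Il2ra at 1.81 and -0.12, and Il4ra at 0.97 and 0.96.

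Il2rg, the gamma chain that all receptors of the first family share, lies at chrX:101264378-101268255 of GRCm38 on the minus strand. It had 154, 169 and 175 normalized CPM in wt, 211, 236 and 213 in Stat5a-/- and 295, 234 and 282 in Stat5b-/- libraries. Every knockout library was above every wt library. The log2 fold change was 0.41 (SE 0.108, edgeR adjusted p = 0.0101) in Stat5a-/- and 0.70 (SE 0.108, edgeR adjusted p = 0.000158) in Stat5b-/-. The difference between the knockout lines, 0.30 (edgeR adjusted p = 0.0483), lay at the threshold, and leaving out 8 of the 9 libraries singly or adding the replicate block (edgeR adjusted p = 0.105) took it past 0.05. Without Stat5a-/- replicate 2 the value for Stat5a-/- against wt was 0.34 (edgeR adjusted p = 0.0594). With the log2 sum of the T-cell markers as a covariate the values against wt were 0.08 in Stat5a-/- (edgeR adjusted p = 0.694) and 0.14 in Stat5b-/- (edgeR adjusted p = 0.72). Of the Il2rg exon bases 30.5% are shared with the gene model Gm20489 on the same strand, and reads there were not assigned to either gene at the counter's default setting.

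Il7r encodes the alpha chain that binds IL-7 with the gamma chain and TSLP with Crlf2. The gene lies at chr15:9506161-9529876 on the minus strand. Its values were 324, 408 and 391 normalized CPM in wt, 184, 188 and 151 in Stat5a-/- and 289, 233 and 310 in Stat5b-/- libraries. All 6 knockout libraries were below all 3 wt libraries, and the Stat5a-/- libraries were below those of Stat5b-/-. Il7r fell by 1.10 on the log2 scale in Stat5a-/- (SE 0.135, edgeR adjusted p = 2.57e-05) and by 0.43 in Stat5b-/- (SE 0.134, edgeR adjusted p = 0.0179). With an offset for GC content, chosen after seeing the data, the first value was -0.97. The smaller fall did not pass without wt replicate 2 (edgeR adjusted p = 0.066), without wt replicate 3 (0.0642) or without Stat5b-/- replicate 2 (0.0849). The knockout lines differed by 0.67 (SE 0.135, edgeR adjusted p = 0.00197), and by 0.30 with the T-cell covariate (edgeR adjusted p = 0.122). Il7r was the chain that was lower in both knockout lines.

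The promoter of Il7r is printed as the chain that fell in both lines, and because it holds the letters TTCNNNGAA, the core motif that STAT5 is known to bind. Promoter sequences, 250 bases before to 50 bases after the start that RefSeq gives, were taken from RefSeq for the GRCm38.p6 build. This start is that of the counted gene model for Il7r, and lies 15 bases upstream of it for Il2ra and 118 bases upstream for Csf2rb2. They were found for 8 of the 10 chains, and none was found for Il2rb and Csf2rb. The motif reads the same on both strands. It was present once in 2 of the 8 promoters, those of Il7r and Csf2rb2, and in 8.30% of 32851 promoters of the same length. The motif begins 142 bases before the Il7r start in RefSeq and is in capitals in the sequence, which is that of the minus strand at chr15:9529827-9530126. A match is a description of the letters and not a measured binding site.
Il7r: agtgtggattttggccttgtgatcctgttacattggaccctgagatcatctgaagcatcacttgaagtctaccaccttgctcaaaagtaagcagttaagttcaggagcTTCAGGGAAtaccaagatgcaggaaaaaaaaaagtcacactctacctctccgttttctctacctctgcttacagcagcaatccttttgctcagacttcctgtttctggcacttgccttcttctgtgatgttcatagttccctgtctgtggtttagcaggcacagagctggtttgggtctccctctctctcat

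Il2ra encodes the alpha chain of the high-affinity IL-2 receptor, known as CD25, and lies at chr2:11642807-11693193 on the plus strand. It had 12.8, 13.6 and 15.4 normalized CPM in wt, 50.7, 45.2 and 50.7 in Stat5a-/- and 12.8, 11.3 and 14.3 in Stat5b-/- libraries. The Stat5a-/- libraries all stood far above the other libraries, and the wt and Stat5b-/- libraries overlapped. Il2ra rose by 1.81 on the log2 scale in Stat5a-/- (SE 0.124, edgeR adjusted p = 1.04e-07). In Stat5b-/- the change was -0.12 (SE 0.128, edgeR adjusted p = 0.454). Between the knockout lines the difference was -1.93 (SE 0.126, edgeR adjusted p = 1.02e-07). The Il2ra promoter is printed because this chain differed most between Stat5a-/- and wt. It is the plus strand at chr2:11642542-11642841 of GRCm38.p6, and the letters TTCNNNGAA are not in this window.
Il2ra: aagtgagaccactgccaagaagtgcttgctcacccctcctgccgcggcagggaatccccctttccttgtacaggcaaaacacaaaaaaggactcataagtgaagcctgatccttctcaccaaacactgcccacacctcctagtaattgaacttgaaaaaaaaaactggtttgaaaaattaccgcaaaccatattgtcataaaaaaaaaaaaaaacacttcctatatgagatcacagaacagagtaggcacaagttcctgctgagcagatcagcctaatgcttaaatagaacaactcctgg

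Il2rb, the signalling beta chain that IL-2 and IL-15 share, lies at chr15:78480553-78495066 on the minus strand. It was at 42.5, 55.7 and 52.3 normalized CPM in wt, 73.0, 81.0 and 66.7 in Stat5a-/- and 128, 93.4 and 125 in Stat5b-/- libraries. The lines did not overlap, with wt lowest and Stat5b-/- highest. Il2rb rose by 0.55 on the log2 scale in Stat5a-/- (SE 0.142, edgeR adjusted p = 0.00792) and by 1.20 in Stat5b-/- (SE 0.142, edgeR adjusted p = 1.61e-05), and the knockout lines differed by 0.65 (edgeR adjusted p = 0.00341). The T-cell markers had the same order of libraries as Il2rb within each of the 3 lines. With the log2 sum of the T-cell markers as a covariate the values were 0.00 in Stat5a-/- (edgeR adjusted p = 0.997) and 0.22 in Stat5b-/- (edgeR adjusted p = 0.528), and the difference between the knockout lines was 0.22 (edgeR adjusted p = 0.222).

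Il4ra and Il21r lie next to each other on chromosome 7, with 23954 bases between the gene models and both on the plus strand. Il4ra (chr7:125552120-125579474) encodes the alpha chain for IL-4 and IL-13. It had 16.2, 16.7 and 17.9 normalized CPM in wt, 32.9, 30.9 and 35.8 in Stat5a-/- and 39.0, 30.3 and 29.5 in Stat5b-/- libraries. Every knockout library was above every wt library and the knockout lines overlapped. Il4ra rose by 0.97 (SE 0.13, edgeR adjusted p = 5.42e-05) and 0.96 (SE 0.129, edgeR adjusted p = 4.89e-05) on the log2 scale, both just under the limit of 1. With the T-cell covariate the Stat5b-/- value was 0.72 (edgeR adjusted p = 0.173). The difference between the knockout lines was -0.01 (SE 0.127, edgeR adjusted p = 0.958). Leaving out single libraries moved the rise between 0.89 and 1.01 in Stat5a-/- and between 0.80 and 1.04 in Stat5b-/-. The antisense gene model Gm44876 shares 9.51% of the Il4ra exon bases, and the counting used no strand, so that reads there were not assigned to either gene.

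Il21r (chr7:125603429-125633570) encodes the ligand-specific chain for IL-21. Its levels were 31.9, 35.3 and 35.5 normalized CPM in wt, 50.3, 53.0 and 49.9 in Stat5a-/- and 89.8, 81.7 and 82.3 in Stat5b-/- libraries. The 3 lines were separated, in the same order as for Il2rb and with a narrower spread. Il21r rose by 0.58 on the log2 scale in Stat5a-/- (SE 0.0969, edgeR adjusted p = 0.00039) and by 1.31 in Stat5b-/- (SE 0.0967, edgeR adjusted p = 1.97e-07), and the knockout lines differed by 0.73 (SE 0.0958, edgeR adjusted p = 7.3e-05). With the T-cell covariate Il21r was at 0.42 in Stat5a-/- (edgeR adjusted p = 0.0511) and at 1.04 in Stat5b-/- (edgeR adjusted p = 0.00883).

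The beta chains are encoded by neighbouring genes on chromosome 15 that point away from each other, with 20386 bases between them. Csf2rb (chr15:78325990-78351000, plus strand) encodes the chain shared by IL-3, IL-5 and GM-CSF, and Csf2rb2 (chr15:78282517-78305603, minus strand) a second chain, found in mice, that serves IL-3. Csf2rb was at 80.4, 65.5 and 74.1 normalized CPM in wt, 223, 196 and 258 in Stat5a-/- and 107, 89.0 and 73.1 in Stat5b-/- libraries. The Stat5a-/- libraries stood apart, while those of wt and Stat5b-/- overlapped. Csf2rb rose by 1.62 on the log2 scale in Stat5a-/- (SE 0.148, edgeR adjusted p = 1.69e-06) and was at 0.29 in Stat5b-/- (SE 0.146, edgeR adjusted p = 0.12). The last value was 0.42 without Stat5b-/- replicate 3 (edgeR adjusted p = 0.0233), 0.12 without Stat5b-/- replicate 1 (edgeR adjusted p = 0.543) and 0.28 with the GC offset (edgeR adjusted p = 0.0329).

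Csf2rb2 was at 23.8, 19.8 and 21.7 normalized CPM in wt, 56.4, 62.1 and 76.5 in Stat5a-/- and 11.7, 9.77 and 9.98 in Stat5b-/- libraries. No line overlapped another, with Stat5a-/- highest and Stat5b-/- lowest. Csf2rb2 rose by 1.58 on the log2 scale in Stat5a-/- (SE 0.135, edgeR adjusted p = 8.86e-07) and fell by 1.05 in Stat5b-/- (SE 0.144, edgeR adjusted p = 5.75e-05). The knockout lines differed by -2.63 (SE 0.144, edgeR adjusted p = 1.97e-08), which was the largest difference of the 10 chains in any of the 3 comparisons. Without wt replicate 1 the fall in Stat5b-/- was 0.99, under the limit of 1. With the T-cell covariate it was -0.80 (edgeR adjusted p = 0.191). The Csf2rb2 promoter is printed for these opposite changes. It is the minus strand at chr15:78305672-78305971 of GRCm38.p6, with TTCNNNGAA in capitals, beginning 15 bases before the RefSeq start.
Csf2rb2: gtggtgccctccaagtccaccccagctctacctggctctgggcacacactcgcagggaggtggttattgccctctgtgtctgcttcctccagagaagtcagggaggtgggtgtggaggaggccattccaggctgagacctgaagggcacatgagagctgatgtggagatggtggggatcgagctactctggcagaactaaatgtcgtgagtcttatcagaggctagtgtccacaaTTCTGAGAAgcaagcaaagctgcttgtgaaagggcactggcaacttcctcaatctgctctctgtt

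The beta chain genes are close paralogs, and the counter drops reads that map to both. Of the distinct stretches of 50 bases, the read length, 12.3% of those in Csf2rb transcripts and 18.4% of those in Csf2rb2 transcripts also occur in the other gene. The longest identical coding stretch, 242 bases at positions 2083 to 2324 of both coding sequences in the GENCODE M21 transcripts, is printed because a read inside it cannot be given to either gene. Levels of both genes are therefore uncertain by what was dropped. With the reads of the pair summed into 1 feature, the log2 fold change was 1.61 in Stat5a-/- and 0.08 in Stat5b-/- (edgeR adjusted p = 0.683), against 0.29 and -1.05 for the separate genes in Stat5b-/-. In Stat5b-/- libraries Csf2rb had a mean of 89.7 normalized CPM and Csf2rb2 10.5, so the sum is mostly Csf2rb. Summing does not bring back the dropped reads.
Csf2rb and Csf2rb2: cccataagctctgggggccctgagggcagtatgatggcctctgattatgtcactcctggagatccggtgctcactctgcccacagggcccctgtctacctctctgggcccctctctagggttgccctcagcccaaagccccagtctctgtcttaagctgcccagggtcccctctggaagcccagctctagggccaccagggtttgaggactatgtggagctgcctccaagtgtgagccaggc

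Within a library the ratio of Csf2rb2 to Csf2rb reads per kb was 0.307 ± 0.00563 in wt (SD, n = 3), 0.299 ± 0.034 in Stat5a-/- and 0.122 ± 0.016 in Stat5b-/-. The pair rose together in Stat5a-/-, and the ratio was lower in all 3 Stat5b-/- libraries than in any other. The exact two-sided permutation test gave p = 0.1 for Stat5b-/- against either line, the smallest value that 3 libraries against 3 allow, and p = 0.9 for Stat5a-/- against wt. The ratio of Il2ra to Il2rb, chains of 1 receptor, was 0.137 ± 0.0151 in wt, 0.327 ± 0.0502 in Stat5a-/- and 0.0547 ± 0.00545 in Stat5b-/-. For Il7r to Il2rg it was 1.67 ± 0.115, 0.59 ± 0.0608 and 0.763 ± 0.0483 in the same order. These ratios did not overlap between any of the lines, again with p = 0.1 in the exact permutation test. Among 18 such comparisons of 6 ratios none could go below that p. Il21r per Il2rg was also separated between the lines, at 0.148 ± 0.00231 in wt, 0.167 ± 0.00481 in Stat5a-/- and 0.226 ± 0.0217 in Stat5b-/-. Il4ra per Il2rg overlapped between Stat5b-/- and either other line, and Il2rb per Il2rg between Stat5a-/- and wt, each with p = 0.2 in the exact permutation test. Ratios to Il2rg may be too high in every line, because reads were not assigned in 30.5% of its exon bases.

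**Figure D3:**
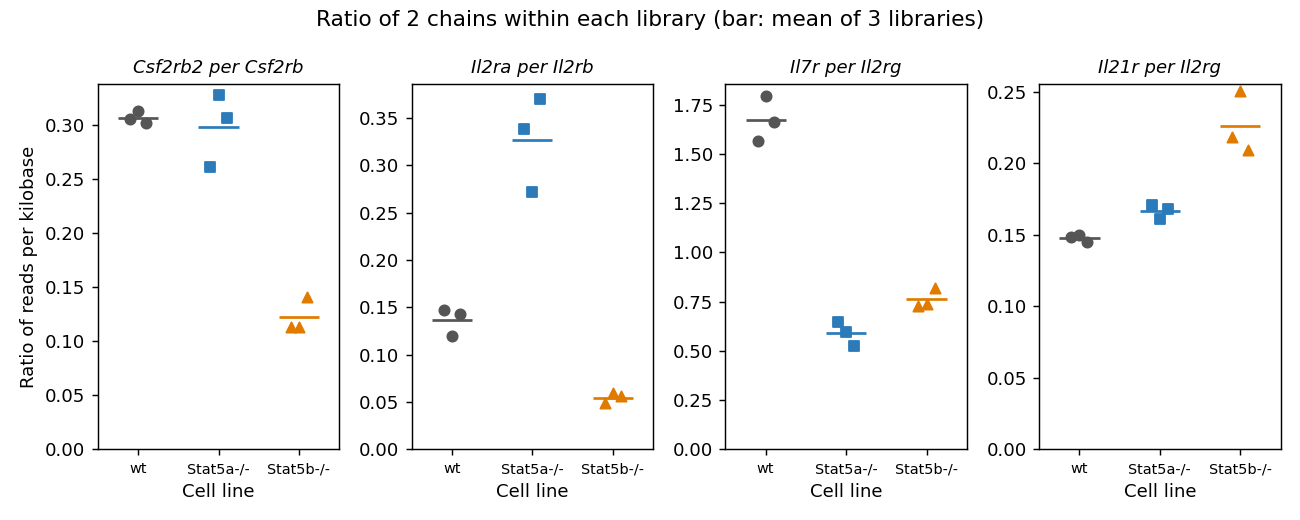
Ratios of reads per kilobase of 2 chains within each library, 1 point per library and a bar at the mean of 3, in panels with axes from 0. Csf2rb2 per Csf2rb is lower in Stat5b-/- (0.122) than in wt (0.307) and Stat5a-/- (0.299), whereas Il7r per Il2rg is lower in both knockout lines (0.59 and 0.763) than in wt (1.67).

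Il3ra, the alpha chain for IL-3, lies at chr14:14346495-14355490 on the plus strand and had few reads, between 48 and 202 in a library. It was at 5.33, 2.78 and 2.77 normalized CPM in wt, 7.06, 7.89 and 10.9 in Stat5a-/- and 13.9, 12.2 and 10.4 in Stat5b-/- libraries. All knockout libraries were above the wt libraries, of which replicate 1 was the highest. Il3ra rose by 1.26 on the log2 scale in Stat5a-/- (SE 0.258, edgeR adjusted p = 0.00183) and by 1.76 in Stat5b-/- (SE 0.251, edgeR adjusted p = 8.07e-05). Without wt replicate 1 these values were 1.62 and 2.13. The knockout lines differed by 0.51 (SE 0.237, edgeR adjusted p = 0.117), and this passed with no filter on low counts (edgeR adjusted p = 0.0307), with the GC offset (0.00153), without wt replicate 1 (0.0484) or without Stat5a-/- replicate 3 (0.0446). The 10 monocyte and granulocyte markers, from cells in which IL-3 receptors are known, had sums of 4.62 to 7.02 normalized CPM in wt, 7.57 to 9.37 in Stat5a-/- and 12.0 to 15.4 in Stat5b-/- libraries. Of these markers 3 were tested, and 1 (Fcgr3) was higher past both limits in Stat5a-/- and all 3 in Stat5b-/-, where 7.75% and 10.6% of all tested genes were, while 1 had 0 reads in all wt libraries, 3 in all Stat5a-/- and 4 in all Stat5b-/- libraries. The 6 mast cell and basophil markers summed to 0.462 to 0.571, 0.811 to 1.14 and 0.914 to 1.58. The part of these cells in the Il3ra values was not tested.

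Csf2ra, the alpha chain for GM-CSF, lies at chr19:61224402-61228418 on the minus strand. It was at 11.4, 9.60 and 10.3 normalized CPM in wt, 15.0, 15.5 and 17.0 in Stat5a-/- and 13.4, 12.1 and 11.6 in Stat5b-/- libraries. The lines were separated by small steps, with Stat5a-/- highest. Csf2ra rose by 0.60 on the log2 scale in Stat5a-/- (SE 0.129, edgeR adjusted p = 0.00246) and was at 0.24 in Stat5b-/- (SE 0.13, edgeR adjusted p = 0.144). The 471 tested genes of chromosome 19 had a median log2 fold change of 0.41 in Stat5a-/- against wt, beside 0.01 over all tested genes, and 0.03 in Stat5b-/- against wt. The part of this shift in the Csf2ra value was not tested. The difference of -0.36 between the knockout lines (edgeR adjusted p = 0.0485) did not pass when any of 7 libraries was left out or with the replicate block (edgeR adjusted p = 0.0956), DESeq2 (adjusted p = 0.055) or the T-cell covariate (edgeR adjusted p = 0.33). With the GC offset it was -0.17 (edgeR adjusted p = 0.223), and the chromosome 19 median of that comparison was -0.43.

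The T-cell marker sum and part of the chains followed the same order over the libraries. Of the 16 T-cell markers, 1 (Cd2) passed both limits in Stat5a-/- against wt, and 14 others did in Stat5b-/- against wt. All were higher, where 7.75% and 10.6% of all tested genes were higher past both limits. The 1 of 16 in Stat5a-/- is near that share. Between the knockout lines Cd2 was lower past both limits in Stat5b-/-, as were 6.6% of all tested genes. By the adjusted p alone 14 of the 16 were higher there and 1 lower, where 16.4% and 17.5% of all tested genes were. The 8 NK-cell markers, known from cells that also carry Il2rb, summed to 30.1 to 45.8 normalized CPM in wt, 32.1 to 41.0 in Stat5a-/- and 42.8 to 75.7 in Stat5b-/- libraries. Of the 6 tested, 5 were higher and 1 (Klrb1c) lower past both limits in Stat5b-/-, where 10.6% and 8.44% of all tested genes were. Klrb1c was lower past both limits in Stat5a-/- as well, as were 6.49% of all tested genes. The library order of the marker sum within a line was met in 3 of 3 lines by Il2rb, in 2 by Il7r and Il21r, in 1 by Il2rg and Csf2rb2, and in none by Il2ra, Il4ra, Il3ra, Csf2ra and Csf2rb. With the marker sum as a covariate the 5 chains called in Stat5a-/- remained past both limits, with Il7r at -1.59, Il2ra at 1.62, Il3ra at 1.76, Csf2rb at 1.79 and Csf2rb2 at 1.72. In Stat5b-/- against wt, Il21r (1.04), Il3ra (2.66) and Il7r (-1.29, edgeR adjusted p = 0.00357) were past both limits. The covariate is itself higher in the knockout lines, so it also takes up differences between lines. Between the knockout lines Il2ra (-2.08), Csf2rb (-1.19) and Csf2rb2 (-2.52) stayed past both limits with it.

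**Figure D4:**
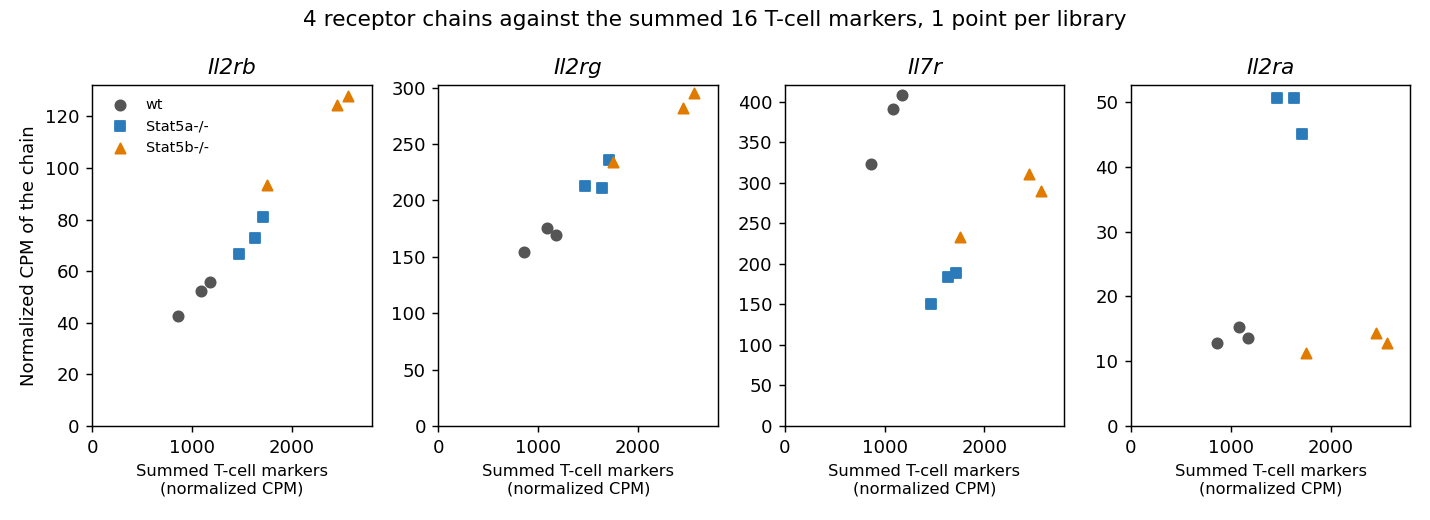
Normalized CPM of Il2rb, Il2rg, Il7r and Il2ra against the summed normalized CPM of 16 T-cell markers, with 1 point per library and both axes from 0. Il2rb follows the order of the marker sum within each line and Il2rg only within Stat5b-/-, Il7r does so within the wt and Stat5a-/- lines but at a different height for each, and Il2ra is at 45.2 to 50.7 in Stat5a-/- libraries and at 11.3 to 15.4 in all others.

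The other chains of these families comprised 6 genes, of which 4 were tested. Il5ra, the alpha chain for IL-5, had 2 to 8 reads in wt, 5 to 20 in Stat5a-/- and 22 to 27 in Stat5b-/- libraries, and rose by 2.11 (SE 0.53, edgeR adjusted p = 0.00685) and 2.78 (SE 0.482, edgeR adjusted p = 0.000406) on the log2 scale. Crlf2, the TSLP partner of Il7r, was at 14.9 to 24.7 normalized CPM in wt, 5.53 to 8.93 in Stat5a-/- and 25.7 to 41.8 in Stat5b-/- libraries. It fell by 1.34 in Stat5a-/- (SE 0.243, edgeR adjusted p = 0.000694) and rose by 0.92 in Stat5b-/- (SE 0.219, edgeR adjusted p = 0.00393), so both chains of the TSLP receptor were lower in Stat5a-/-. Il13ra1, a partner of Il4ra, had 4 to 26 reads in a library and rose by 1.20 in Stat5b-/- (SE 0.336, edgeR adjusted p = 0.0103). With the T-cell covariate Crlf2 was at -0.78 in Stat5a-/- (edgeR adjusted p = 0.127) and Il13ra1 at -0.20 in Stat5b-/- (edgeR adjusted p = 0.9). Il5ra kept its size, 2.05 in Stat5a-/- and 2.67 in Stat5b-/-, with larger standard errors of 0.802 and 1.16, and did not pass (edgeR adjusted p = 0.0849 and 0.162).

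Of the 11 ligand genes only Il7 passed the filter. Il7 had 15 to 27 reads in wt, 2 to 3 in Stat5a-/- and 5 to 10 in Stat5b-/- libraries, and was lower in both (log2 fold change -2.73, SE 0.437, edgeR adjusted p = 0.00026, and -1.16, SE 0.336, edgeR adjusted p = 0.0127). The second value did not pass with DESeq2 (-1.20, adjusted p = 0.0689) or with the T-cell covariate (-1.63, edgeR adjusted p = 0.266). It also did not pass without wt replicate 3 (-1.04, edgeR adjusted p = 0.055) or without Stat5b-/- replicate 1 (-0.92, edgeR adjusted p = 0.0535). Il3, Il9 and Il21 had 0 reads in all 9 libraries, where 3 reads correspond to 0.158 to 0.251 CPM. Csf2, Il2, Il5, Il13 and Tslp had at most 3 reads in a library, Il4 at most 13 and Il15 between 1 and 9. Of 8 other STAT5-activating receptors, Flt3 was the one tested, and it was at 3.24 to 3.99 normalized CPM in wt, 0.976 to 1.33 in Stat5a-/- (log2 fold change -1.64, SE 0.265, edgeR adjusted p = 0.000293) and 1.5 to 2.67 in Stat5b-/- libraries.

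The 9 Janus kinases and STATs of these receptors were all tested. In Stat5a-/- 2 rose and 2 fell, with Stat5a itself past both limits, and in Stat5b-/- 5 rose and 2 fell. Over all tested genes 19.8% rose and 16.3% fell in Stat5a-/-, and 24.2% rose and 22% fell in Stat5b-/-. Stat5a was higher in Stat5b-/- than in wt (0.96, SE 0.131, edgeR adjusted p = 5.95e-05), and Stat5b was higher in Stat5a-/- than in wt (0.43, SE 0.112, edgeR adjusted p = 0.00942). The Stat5b value did not pass without Stat5a-/- replicate 1 (0.39, edgeR adjusted p = 0.0511) or 3 (0.32, edgeR adjusted p = 0.0593). With the T-cell covariate it did not pass either (0.38, edgeR adjusted p = 0.17). Of 19 adaptors and signal attenuators, 7 rose and 3 fell in Stat5a-/-, with Irs2 (1.12) and Sla2 (1.15) past both limits, and 13 rose and none fell in Stat5b-/-, with Sla2 (1.15) past both limits and at 0.89 with the T-cell covariate (edgeR adjusted p = 0.164). The fall of 3 of 19 in Stat5a-/- is near the share over all tested genes. Irs2 encodes a docking protein of the insulin and IL-4 receptors, and Sla2 an adaptor that dampens lymphocyte receptor signals.

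Of the 16 textbook STAT5 target genes, 7 rose and 3 fell in Stat5a-/-, and 7 rose and 5 fell in Stat5b-/-. Beside these counts, 19.8% of all tested genes rose and 16.3% fell in Stat5a-/-, and 24.2% rose and 22% fell in Stat5b-/-. Cish, a feedback inhibitor that STAT5 induces, was at 13.4 to 16.9 normalized CPM in wt, 85.4 to 119 in Stat5a-/- and 18.4 to 38.9 in Stat5b-/- libraries. It rose by 2.75 on the log2 scale in Stat5a-/- (SE 0.227, edgeR adjusted p = 6.54e-07) and by 1.00, just under the limit, in Stat5b-/- (SE 0.224, edgeR adjusted p = 0.00266). Socs1, a second feedback inhibitor, and the kinase gene Pim1 also passed both limits in Stat5a-/-, at 1.83 and 1.34. In Stat5b-/- Gimap5 rose by 1.18 past both limits, and Myc (-1.93) and Id1 (-1.81) fell past both limits. With the T-cell covariate Gimap5 was at 0.41 (edgeR adjusted p = 0.377) and Id1 at -1.64 (edgeR adjusted p = 0.17) in Stat5b-/-, while Cish was at 1.52 and Socs1 at 1.39, larger than without it but not called (edgeR adjusted p = 0.11 and 0.107). Against Stat5a-/-, the Stat5b-/- line was lower past both limits in Cish (-1.75), Socs1 (-1.07), Socs3 (-1.10), Pim1 (-2.11) and Myc (-1.38), and higher in Bcl6 (1.01). Past both limits, 6.6% of all tested genes were lower in this comparison and 4.81% higher. Of these target genes, Socs1 was not called with the T-cell covariate (-0.79, edgeR adjusted p = 0.0928). Il2ra, Csf2rb and Csf2rb2 were lower in the same comparison, and a link between these chains and the target genes was not tested.

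The genes whose log2 levels followed each chain most closely over the 9 libraries were found among 9744 genes with a mean of at least 5 normalized CPM. For Il2rb these were Cd3e (Pearson r = 0.998) and Tcf7 (0.998), both T-cell genes, and for Il2rg Shisa5 (0.996) and Thy1 (0.990). Socs1 (0.997) and Diaph1 (0.992) were closest to Csf2ra, Arl5c (0.996) and Stac2 (0.995) to Csf2rb2, and Mtch1 (0.997) and Rps6ka4 (0.994) to Csf2rb. Il21r was closest to Cnn2 (0.997) and Ifi30 (0.996), Il3ra to Tap2 (0.992) and Snx8 (0.985), Il4ra to Kif21b (0.995) and Slc43a2 (0.990). Aldh6a1 (0.996) and Wdfy1 (0.992) were closest to Il7r, and the pseudogene Rplp0-ps1 (0.996) and Stum (0.994) to Il2ra. These values rest on 3 lines with shared libraries and were taken as the highest of many genes, so they describe the pattern and are given without a test.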

How the data were processed

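Counts of wt, Stat5a-/- and Stat5b-/- libraries were grouped by genotype, as given in the sample titles. In the descriptions the knockout samples are named as wt lines, against their titles and genotype labels. Per the file headers and the labels, the authors trimmed 50-base single-end reads with Trimmomatic, mapped them with STAR to GRCm38 and deposited raw counts per gene from featureCounts 1.5.1 with GENCODE M13 and no strand setting. All libraries came from 1 flow cell lane. Gene symbols were found for 50376 of the 50686 genes in a GENCODE M21 table.

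TMM scaling and all main tests were done in edgeR 4.0.16 under R 4.3.3 (filterByExpr, glmQLFit and glmQLFTest on all 9 libraries, Benjamini-Hochberg adjustment over 13852 genes). A gene rose or fell at an adjusted p under 0.05, and passed both limits with an absolute log2 fold change above 1 as well. The size of the log2 fold change divided by the root of its F statistic gave the standard error. Levels per kb use the deposited gene model lengths. Steps were tested on simulated data. Alternatives were RLE size factors, DESeq2 1.42.0, other filters on low counts, only the 2 genotypes compared, a replicate block, the adjusted p alone, each library left out, a T-cell marker covariate, summed Csf2rb and Csf2rb2 reads and, chosen after seeing the data, a GC offset. The genes named besides the 10 chains are the 2 Stat5 genes, the genes of each list past both limits in a comparison, and the 2 genes most like each chain, and 1 gene under this rule is not reported here. The 10 chains and all lists were chosen with earlier results of these data known, and no list was tested as a set. Human samples were not analysed here. Reads carry no molecular identifiers, so the floor of 3 reads covers counting error only.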

Additional observations from a re-analysis of the deposited data

How the results depend on the processing

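The numbers of chains past both limits, 5, 4 and 3 in the 3 comparisons, stayed at 5, 4 and 3 with RLE size factors, DESeq2, no filter, a minimum mean of 10 counts, fits of only 2 genotypes and the replicate block. They were 4, 4 and 3 with the GC offset, 5, 3 and 3 with the T-cell covariate, and 10, 7 and 8 with the adjusted p alone. With each library left out in turn they lay between 5 and 6, 3 and 5, and 3 and 3. Over all tested genes the adjusted p alone called 4993, 6397 and 4698 genes against 1973, 2640 and 1580, and the T-cell covariate 1654 in Stat5b-/- against wt. Of 516 values of the 10 chains under alternatives, 466 kept their direction and side of the threshold, 39 were lost, 6 were gained and 5 changed direction. Those were the entry for the summed beta chains and Il4ra between the knockout lines, at 0.15 with the GC offset and between -0.156 and 0.0645 with libraries left out. The summed entry (0.0765, Stat5b-/- against wt) is the value of the pair set beside Csf2rb2, and not a value of Csf2rb2 alone. Among the other pathway genes, Il13ra1 was at -0.20 in Stat5b-/- against wt with the T-cell covariate. Sla2 between the knockout lines was at -0.0064 with RLE size factors, -0.0115 with DESeq2, -0.11 with the covariate and between -0.0992 and 0.0924 with libraries left out. Apart from the summed pair, the cause of these changes was not tested.

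The replicate numbers did not pair the samples: the mean correlation of deviations was -0.167 over 9 pairs with the same number and 0.0801 over 18 others. With the replicate block 1941, 2595 and 1519 genes were called, and among the chains it took Il2rg (adjusted p = 0.105) and Csf2ra (adjusted p = 0.0956) between the knockout lines past 0.05 in edgeR. GC content of the genes correlated with a library's deviation from its line between -0.482 and 0.525.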
